A study of Mus musculus with 9 samples.

Results

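Respiratory complex I, also called NADH:ubiquinone oxidoreductase, was followed through 37 of the 38 genes of the array whose RefSeq symbol is Ndufa, Ndufb, Ndufc, Ndufs or Ndufv followed by a digit, or Ndufab1. The array's probes could be given 19798 gene symbols in all, and 43 probes carried the 37. Complex I assembly factors (Ndufaf) were left out by this rule. Of the 37, 6 were nuclear core subunits, 29 were accessory subunits, and Ndufa4 and Ndufa4l2 carry the name without being counted among the subunits today. Genes were tested if the scanner software set their probe well above background throughout 1 or more groups. That left 36 of the 37, without Ndufa4l2, among 14506 genes tested in all. Each of the 36 met that mark on all 9 arrays, so none entered through 1 group alone.

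The cells were erythroblasts, the nucleated precursors of red cells, of a sorted fraction named subset II. They came from bone marrow of C57BL/6J mice, wild-type and labelled female. One group had 3 weeks of low iron diet after weaning, one had 7 weeks, and one had a normal diet, with 3 single-colour arrays each. If both low iron diets began at weaning, the 7 week mice were older than the 3 week mice. Age and weeks of diet then cannot be told apart between those groups. The replicates are biological per the design text, but whether a sample was 1 animal or a pool, and the age of the normal diet mice, are not given in the sources used here, and p-values measure only the spread between these samples. The study asks how iron deficiency anemia alters erythroblasts, mitophagy among other things.

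Complex I takes electrons from NADH, passes them over a flavin and a chain of iron-sulfur clusters to ubiquinone, and pumps protons across the inner mitochondrial membrane. The core subunits are those shared with bacteria: the nuclear ones form the matrix arm that carries the flavin and the clusters, and the proton-pumping core in the membrane is encoded by mitochondrial DNA. The accessory subunits surround the core and are needed for its assembly and stability. Erythroblasts use mitochondria for heme synthesis and clear them as they become red cells.

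Levels below are log2 signal minus the log2 75th percentile of the same array, from the brightest probe of each gene, and levels of different genes are not compared with each other. Changes are log2 fold changes ± the standard error from limma, with a p-value adjusted over all genes tested and a threshold of 0.05. Values of second probes come from a separate fit of all named probes that met the background mark. Their p-values are adjusted over those probes. Both comparisons with normal diet share the same 3 normal diet arrays. The arrays of each group lay on 1 slide and in 1 scan of their own, so slide or scan and diet cannot be told apart. In sorted bulk cells, fewer cells of a type and less RNA per cell cannot be told apart either.

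The 75th percentile of the signal was 1677 to 1837 on the 3 week arrays, 791.7 to 1087 on the 7 week arrays and 1499 to 1616 on the normal diet arrays. Spots well above background made up 56.8 to 70.8% on 3 week arrays, 45.2 to 53.6% on 7 week arrays and 65.5 to 66.3% on normal diet arrays. Normal diet replicates 1 and 2 went against the female label, with Xist, expressed from the inactive X chromosome, at -5.59 and -5.24 and the Y-linked Eif2s3y at 5.12 and 4.82. On the other 7 arrays Xist lay between -1.16 and 1.46 and Eif2s3y at -3.77 or lower. Ndufa1 and Ndufb11 are on the X chromosome. Of 11 erythroid markers, 10 were tested, all well above background on all 9 arrays. Their summed linear level was 1748 to 1882 at 3 weeks, 2551 to 4022 at 7 weeks and 2050 to 2156 on normal diet, and none of the 10 passed the test at 3 weeks, while 3 rose and 1 fell at 7 weeks. Over all genes 7.88% fell and 3.52% rose at 3 weeks, and 10.7% rose and 18.7% fell at 7 weeks.

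To show what lies at the start of these genes, their RefSeq promoter windows (GRCm38.p6, 250 bases before to 50 after the gene start) were searched on both strands for core letters of the motifs of 3 regulators known for nuclear genes of the respiratory chain. The windows of 33 of the 37 genes were in the table. The YY1 core, searched as AAGATGG, was in 7 of the 33 (21.2%), against 7.28% of the 27025 genes in the table. It began 22 to 38 bases after the gene start in all 7, and its letters include ATG; whether that is the start codon was not looked up. These 7 are shown because they hold Ndufa3, the member with the largest change at 3 weeks, and Ndufs4, an accessory subunit whose change did not pass there. Each line gives 30 bases on the strand of the gene, with the matching letters in capitals.

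Ndufa3 (chr7:3617384-3617413, plus strand): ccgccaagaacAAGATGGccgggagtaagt
Ndufa9 (chr6:126849097-126849126, minus strand): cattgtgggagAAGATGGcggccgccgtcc
Ndufb8 (chr19:44555393-44555422, minus strand): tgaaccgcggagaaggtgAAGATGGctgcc
Ndufc1 (chr3:51408915-51408944, minus strand): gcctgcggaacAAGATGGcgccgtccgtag
Ndufs4 (chr13:114388045-114388074, minus strand): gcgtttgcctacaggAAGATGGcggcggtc
Ndufs6 (chr13:73328433-73328462, minus strand): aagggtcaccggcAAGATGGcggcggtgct
Ndufs7 (chr10:80249462-80249491, plus strand): aggccgaggccAAGATGGcggcgctggcgg

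The NRF1 core, searched as GCATGCG, was in 3 of the 33 windows (9.09%), against 4.01% of all genes. All 3 genes code for accessory subunits, and the letters lay before the gene start.

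Ndufa6 (chr15:82354356-82354385, minus strand): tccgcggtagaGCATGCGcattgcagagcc
Ndufa8 (chr2:36049328-36049357, minus strand): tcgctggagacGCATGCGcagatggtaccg
Ndufa11 (chr17:56717693-56717722, plus strand): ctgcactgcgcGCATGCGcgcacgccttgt

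The GABPA core, searched as CCGGAAG, was in 4 of the 33 windows (12.1%) and in 9.93% of all genes. The windows with it were those of Ndufb6, Ndufb7 and the core subunits Ndufs3 and Ndufs8. No window held more than 1 of the 3 motifs. The 250 bases upstream of Ndufa3 (chr7:3617123-3617372, plus strand), the member with the largest fall at 3 weeks, and of Ndufs3 (chr2:90904722-90904971, minus strand), a core subunit whose level was close to that on normal diet, are set beside each other. That of Ndufs3 held the GABPA letters 1 time, in capitals, and that of Ndufa3 held none of the 3 motifs. A match is only a run of letters and does not show a binding site.

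Ndufa3: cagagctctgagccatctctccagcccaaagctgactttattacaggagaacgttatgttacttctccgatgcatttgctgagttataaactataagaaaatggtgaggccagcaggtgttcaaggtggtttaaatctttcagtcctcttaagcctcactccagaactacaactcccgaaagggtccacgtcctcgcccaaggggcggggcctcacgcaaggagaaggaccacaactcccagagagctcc
Ndufs3: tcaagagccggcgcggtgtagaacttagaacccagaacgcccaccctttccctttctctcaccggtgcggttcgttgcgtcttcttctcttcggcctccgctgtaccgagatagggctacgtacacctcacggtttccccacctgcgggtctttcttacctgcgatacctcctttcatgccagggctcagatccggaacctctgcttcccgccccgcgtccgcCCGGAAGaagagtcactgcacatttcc

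After 3 weeks of low iron diet most accessory subunits of complex I were lower than on normal diet, while 4 of the 6 core subunits did not pass the test. Of the 36 genes tested, 23 fell and 0 rose, beside 7.88% of all genes that fell and 3.52% that rose. The median change was -1.25 over the 36 and -0.17 over all genes. Among the accessory subunits 20 of 29 fell, with a median of -1.41, and all 29 had a negative value. Among the core subunits 2 of 6 fell, with a median of -0.22. Neither core call passed under quantile normalization, with no filter on dim probes, without any 1 of the 3 week or normal diet arrays, or with normal diet replicate 3 as the only normal diet array. The 3 week arrays were all below the 3 normal diet arrays for 30 of the 36, against 31.6% of all genes.

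**Figure D1:**
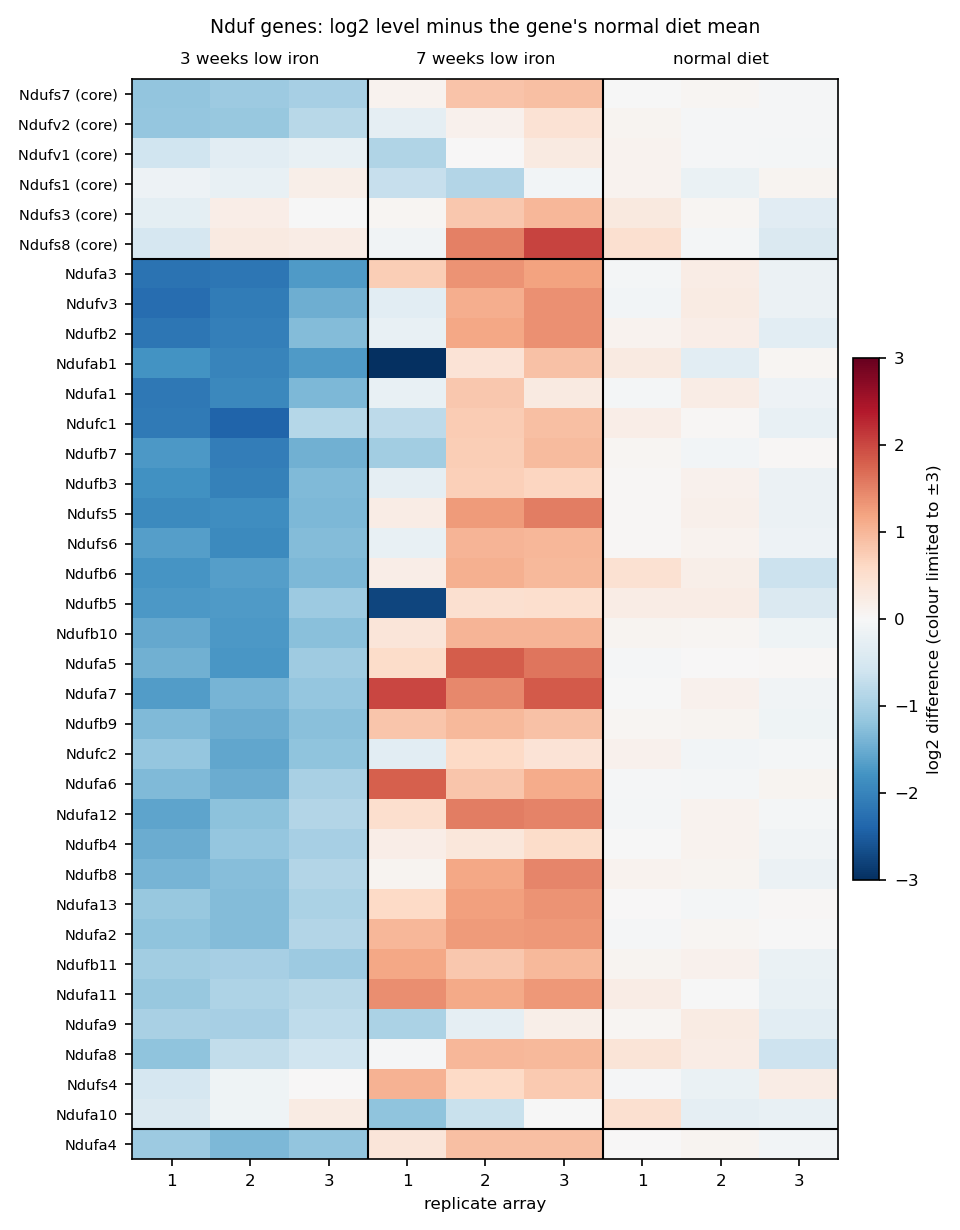
Each cell is the log2 level of 1 gene on 1 array minus that gene's mean over the 3 normal diet arrays, with 3 week arrays on the left, 7 week arrays in the middle and normal diet arrays on the right, and core subunits at the top. The accessory subunits are below 0 at 3 weeks, except Ndufs4 and Ndufa10 on replicate 3, and mostly above 0 at 7 weeks, where Ndufab1 and Ndufb5 are low on replicate 1.

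Of the core subunits of the N module, which oxidises NADH, Ndufv2 fell at 3 weeks. Ndufv2, which binds an iron-sulfur cluster, had levels of 4.89, 4.91 and 5.21 on the 3 week arrays, against 6.13, 6.01 and 6.00 on normal diet. The groups did not overlap, and the change was -1.04 ± 0.26, adjusted p = 0.037. Its partner Ndufv1, which binds NADH, the flavin and a cluster, had 6.33, 6.62 and 6.71 at 3 weeks, against 7.02, 6.89 and 6.85 on normal diet. The 3 week arrays of Ndufv1 were also all lower, yet by -0.37 ± 0.33, adjusted p = 0.486, which missed the threshold. Ndufs1, the core subunit with the most clusters, had 4.83, 4.77 and 5.17 at 3 weeks, against 5.10, 4.80 and 5.06 on normal diet. Its groups overlapped, with a change of -0.06 ± 0.29, adjusted p = 0.909.

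Of the accessory subunits of the same module 4 of 5 fell at 3 weeks, beside 7.88% of all genes. Ndufv3, a small subunit bound next to the flavin site, had 2.74, 2.91 and 3.56 at 3 weeks, against 4.94, 5.27 and 4.84 on normal diet. It was 3.86-fold lower, with no overlap (-1.95 ± 0.45, adjusted p = 0.0282). A dimmer second probe for Ndufv3, well above background on 8 of the 9 arrays, gave 0.79 ± 0.32 (adjusted p = 0.144) there, of the other sign. Ndufs6, which binds zinc, had 5.38, 5.11 and 5.72 at 3 weeks, against 7.06, 7.14 and 6.88 on normal diet. That change was -1.62 ± 0.37, adjusted p = 0.0275. Ndufa12, which joins the complex late in assembly, changed by -1.24 ± 0.34, adjusted p = 0.0478, and Ndufa2, which has a thioredoxin-like fold, by -1.13 ± 0.24, adjusted p = 0.024. Ndufs4, whose loss in mice causes a Leigh-like brain disease, was the exception. Its levels were 5.09, 5.44 and 5.60 at 3 weeks and 5.55, 5.38 and 5.81 on normal diet, and the change was -0.21 ± 0.27, adjusted p = 0.646.

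The Q module, which passes electrons to ubiquinone, holds core subunits too, and 1 of the 3 described here fell, beside 7.88% of all genes. Ndufs7, which carries the last cluster before ubiquinone, had 4.95, 5.03 and 5.15 at 3 weeks, against 6.12, 6.18 and 6.10 on normal diet. It fell by 1.09 on the log2 scale (adjusted p = 0.0384), and the groups did not overlap. Ndufs3, a core subunit without a cluster, had 5.73, 6.22 and 6.01 at 3 weeks, against 6.31, 6.09 and 5.68 on normal diet. Ndufs8, which binds a pair of clusters, had 2.31, 3.09 and 3.03 at 3 weeks, against 3.29, 2.76 and 2.39 on normal diet. Both overlapped widely between groups, with changes of -0.04 ± 0.33, adjusted p = 0.953 and -0.0036 ± 0.53, adjusted p = 0.997. Ndufa5, the accessory subunit of the module, had 4.41, 4.12 and 4.78 at 3 weeks, against 5.81, 5.86 and 5.90 on normal diet, a fall with no overlap (-1.42 ± 0.36, adjusted p = 0.0377). Its second probe had the same sign but did not pass at 3 weeks (-1.12 ± 0.39, adjusted p = 0.0931). Of the 5 core subunits with iron-sulfur clusters, 2 fell at 3 weeks, beside 7.88% of all genes.

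Of the other accessory subunits of the matrix arm, 2 of 4 fell at 3 weeks, beside 7.88% of all genes. Ndufa7 had 3.31, 3.62 and 3.85 at 3 weeks, against 4.98, 5.12 and 4.90 on normal diet (-1.41 ± 0.27, adjusted p = 0.0173), and Ndufa6, which docks the acyl carrier protein to the complex, changed by -1.26 ± 0.31, adjusted p = 0.0328. Ndufab1, that acyl carrier protein, also serves fatty acid, lipoic acid and iron-sulfur cluster synthesis. Its levels were 1.15, 0.98 and 1.25 at 3 weeks and 3.22, 2.63 and 3.00 on normal diet. The groups were well apart, but the change of -1.82 ± 0.86, adjusted p = 0.194 did not pass. The fit pools the spread over all 9 arrays, and the 7 week arrays were far apart for this gene. Ndufa9, near the quinone site, was at -0.91 ± 0.33, adjusted p = 0.104.

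In the proximal membrane arm 6 of 9 fell at 3 weeks, beside 7.88% of all genes. The largest change of any member at 3 weeks was that of Ndufa3, a single-span membrane protein, with 4.03, 4.07 and 4.54 at 3 weeks, against 6.19, 6.46 and 6.08 on normal diet. It was 4.08-fold lower (-2.03 ± 0.28, adjusted p = 0.00926). Ndufa1, X-linked and early in the assembly of the arm, had 5.44, 5.67 and 6.26 at 3 weeks, against 7.54, 7.81 and 7.44 on normal diet (-1.81 ± 0.34, adjusted p = 0.0168). The normal diet array that matched its label, replicate 3, was above all 3 of these 3 week values. Ndufs5, on the side of the intermembrane space, had 3.22, 3.28 and 3.79 at 3 weeks, against 5.18, 5.28 and 4.96 on normal diet (-1.71 ± 0.37, adjusted p = 0.0243). Ndufc2, Ndufa13 and Ndufa11 fell too, with changes between -1.31 and -0.97. Ndufc1 missed the threshold at -1.79 ± 0.53, adjusted p = 0.0588, Ndufa8 at -0.85 ± 0.39, adjusted p = 0.182 and Ndufa10, with a nucleoside kinase-like fold, at -0.10 ± 0.38, adjusted p = 0.882.

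In the distal membrane arm, made of the Ndufb subunits in this list, 7 of 10 fell at 3 weeks, beside 7.88% of all genes. For all 10 the 3 week arrays lay below the normal diet arrays, against 31.6% of all genes. Ndufb2 had 3.06, 3.18 and 3.93 at 3 weeks, against 5.33, 5.44 and 4.91 on normal diet (-1.84 ± 0.45, adjusted p = 0.0331). Ndufb3, which is mutated in some inherited complex I deficiencies, had 4.85, 4.62 and 5.34 at 3 weeks, against 6.70, 6.78 and 6.49 on normal diet (-1.72 ± 0.34, adjusted p = 0.0183). Ndufb6 changed by -1.58 ± 0.37, adjusted p = 0.0282, and its second probe by -1.67 ± 0.42 (adjusted p = 0.0368). Ndufb4, Ndufb9, Ndufb10 and Ndufb11 fell by 1.05 to 1.50 on the log2 scale. Ndufb5, Ndufb7 and Ndufb8 did not pass, at -1.51 ± 0.77, adjusted p = 0.226, -1.74 ± 0.49, adjusted p = 0.0502 and -1.19 ± 0.37, adjusted p = 0.0701. The second probe of Ndufb11 was dim and had 1.17 ± 0.57 (adjusted p = 0.206), of the other sign. Ndufa4, which is now placed in cytochrome c oxidase, fell with the others (-1.21 ± 0.25, adjusted p = 0.0226). Ndufa4l2, its hypoxia-induced relative, was well above background on 2 arrays only and is given no change.

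**Figure D2:**
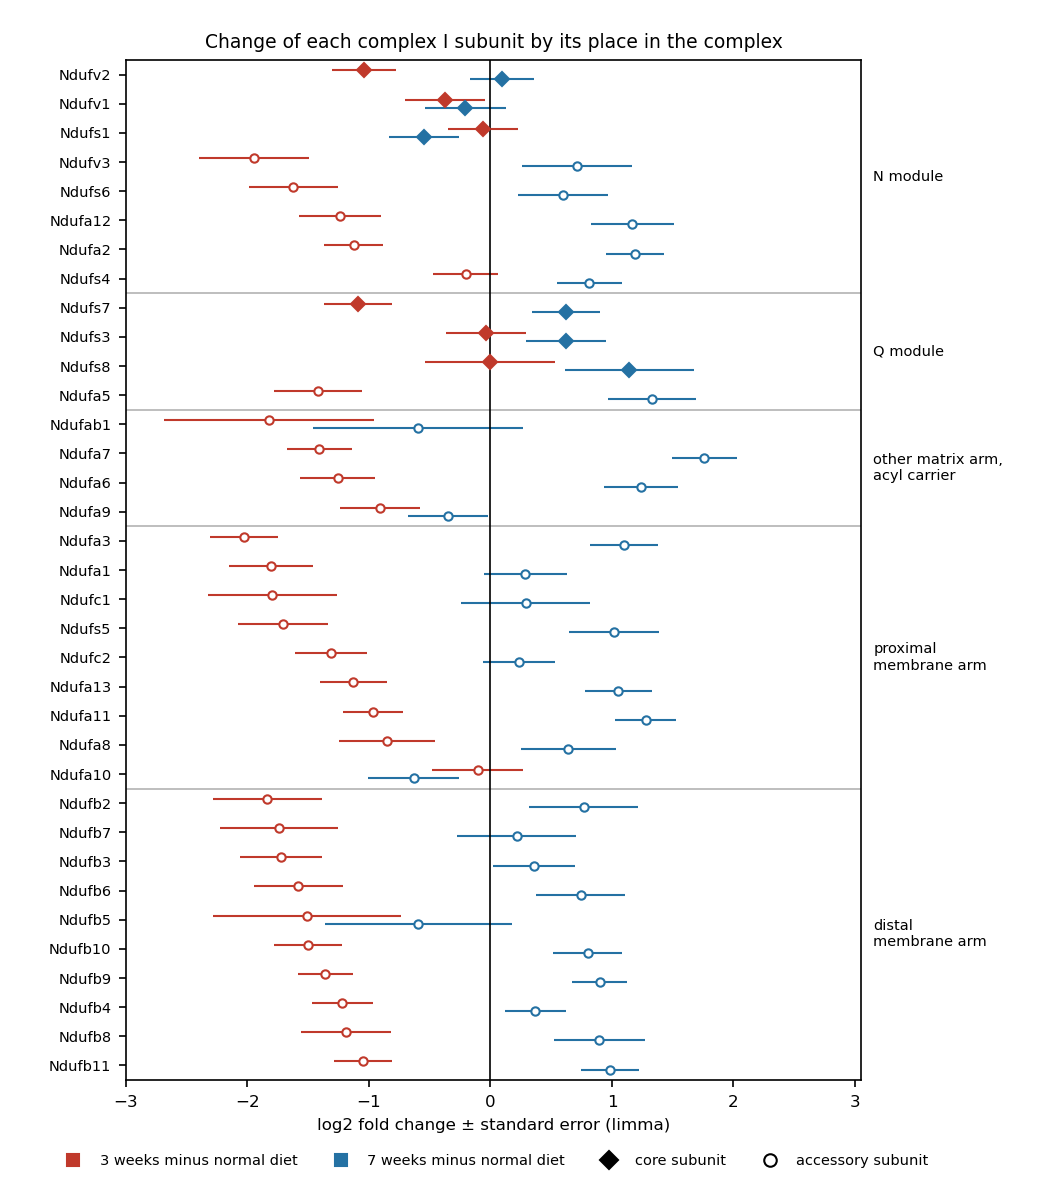
Points are limma log2 fold changes and bars standard errors for the 6 core and 29 accessory subunits, ordered by module, with 3 weeks minus normal diet in red and 7 weeks minus normal diet in blue. Filled diamonds are core and open circles accessory subunits; the accessory circles lie left of 0 at 3 weeks, from -2.03 to -0.10, and the core diamonds at 7 weeks spread over both sides of 0, from -0.55 to 1.14.

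After 7 weeks the picture was another: limma called 11 of the 36 higher than on normal diet and 0 lower (15 at an unadjusted p under 0.05), beside 10.7% of all genes that rose and 18.7% that fell. The balance over all genes depended on the filter: with none on dim probes 4178 genes were called higher and 2761 lower, in place of 1559 and 2719, and the median of all genes was 0.14. The median change was 0.72 over the 36 and -0.26 over all genes. The 11 that rose were all accessory subunits, 11 of 29, with a median of 0.77 over the 29. The 6 core subunits had a median of 0.36, and none of them passed. Before scaling by the 75th percentile, the median change of the 36 was -0.09 and that of all genes -1.07, so the members stood higher relative to the rest of each array. All 11 that rose also had a positive change before scaling, from 0.01 to 0.96.

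The largest rise was that of Ndufa7, with 7.00, 6.44 and 6.84 at 7 weeks, against 4.98, 5.12 and 4.90 on normal diet. It was 3.39-fold higher with no overlap (1.76 ± 0.27, adjusted p = 0.00379). Ndufa5 had 6.41, 7.67 and 7.47 at 7 weeks, against 5.81, 5.86 and 5.90 on normal diet (1.33 ± 0.36, adjusted p = 0.0252), and its second probe gave 1.54 ± 0.39 (adjusted p = 0.0183). Ndufa11, which helps to join the membrane arm and supports supercomplexes, had 3.32, 3.04 and 3.21 at 7 weeks, against 2.15, 1.91 and 1.69 on normal diet. The groups were apart (1.28 ± 0.25, adjusted p = 0.00777). Ndufa6 had 7.78, 6.83 and 7.11 at 7 weeks, against 5.97, 5.94 and 6.09 on normal diet (1.24 ± 0.31, adjusted p = 0.0176). Ndufa2, Ndufa12 and Ndufa13, the last also known as GRIM-19, rose by 1.19 ± 0.24, adjusted p = 0.00918, 1.17 ± 0.34, adjusted p = 0.0321 and 1.05 ± 0.27, adjusted p = 0.0217. Ndufa3, the member with the largest fall at 3 weeks, had 6.98, 7.58 and 7.46 at 7 weeks, against 6.19, 6.46 and 6.08 on normal diet, and rose (1.10 ± 0.28, adjusted p = 0.0207). Ndufb9 and Ndufb11 rose by 0.90 and 0.98. Ndufs4, for which no change passed at 3 weeks, had 6.63, 6.19 and 6.37 at 7 weeks, against 5.55, 5.38 and 5.81 on normal diet (0.81 ± 0.27, adjusted p = 0.048).

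Of the core subunits, Ndufs1 had 4.31, 4.11 and 4.90 at 7 weeks, against 5.10, 4.80 and 5.06 on normal diet (-0.55 ± 0.29, adjusted p = 0.173), and Ndufv1 had 6.02, 6.93 and 7.20, against 7.02, 6.89 and 6.85 on normal diet (-0.21 ± 0.33, adjusted p = 0.659). Neither change passed, and both overlapped with normal diet. Ndufs8 had 2.71, 4.32 and 4.83 at 7 weeks, against 3.29, 2.76 and 2.39 on normal diet (1.14 ± 0.53, adjusted p = 0.131), Ndufs3 had a change of 0.62 ± 0.33, adjusted p = 0.175, Ndufs7 of 0.62 ± 0.28, adjusted p = 0.119 and Ndufv2 of 0.09 ± 0.26, adjusted p = 0.806. The 5 core subunits with iron-sulfur clusters had 0 calls from limma at 7 weeks against normal diet, also at an unadjusted p under 0.05. Over all genes 10.7% rose and 18.7% fell there, so 0 calls among 5 genes is not read as a result about them. For Ndufs7 the 7 week arrays were all above the normal diet arrays.

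Replicate 1 of the 7 week group was lower than the other 2 for much of the module. The median difference of the 36 members from their normal diet mean was 0.07 on replicate 1, 0.88 on replicate 2 and 0.96 on replicate 3. The widest gaps, picked after the values were seen, were those of Ndufab1, with -0.13, 3.36 and 3.83, and Ndufb5, with 2.27, 5.50 and 5.52. Without that array 21 of the 36 rose at 7 weeks against normal diet, in place of 11, beside 12.7% of all genes that rose, in place of 10.7%. Of the 21, 3 were core subunits, so the absence of core calls at 7 weeks rests on that array.

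Nearly all accessory subunits were higher at 7 than at 3 weeks of low iron diet. The mice of these groups may also differ in age, and the part of age was not tested. At 7 weeks limma called 28 of the 36 members higher than at 3 weeks and 0 lower (also 28 at an unadjusted p under 0.05), beside 17.6% of all genes higher and 19.6% lower. The 7 week arrays were all above the 3 week arrays for 28 of the 36, against 23.2% of all genes. By class, 25 of 29 accessory subunits were higher with a median of 2.18, while of 6 core subunits Ndufs7 and Ndufv2 were higher. Ndufa7 and Ndufa3 had the largest differences, 3.17 ± 0.27, adjusted p = 0.000389 and 3.13 ± 0.28, adjusted p = 0.000389. Ndufs5, Ndufv3, Ndufb2 and Ndufa5 followed, between 2.61 and 2.75. The second probe of Ndufv3 went the other way from its brighter probe, with -1.99 ± 0.32 (adjusted p = 0.00197) between 7 and 3 weeks and -1.20 ± 0.32 (adjusted p = 0.0242) between 7 weeks and normal diet, so the direction of Ndufv3 depends on the probe. With the mean over its probes Ndufv3 was at -0.58 at 3 weeks (adjusted p = 0.323) and 0.33 between 7 and 3 weeks (adjusted p = 0.483), and neither passed. Under quantile normalization 26 members were called higher at 7 than at 3 weeks and 2 lower, the core subunits Ndufv1 and Ndufs1. Of the 28 calls, 25 were kept whichever of the 9 arrays was left out. Without replicate 1 of the 7 week group, 4 core subunits were called higher than at 3 weeks, in place of 2.

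The difference between core and accessory subunits could be read within each array, where the scaling cancels. The median of the core subunits minus that of the accessory subunits, each gene taken from its normal diet mean, was 0.97, 1.30 and 0.98 on the 3 week arrays, -0.38, -0.53 and -0.30 on the 7 week arrays, and 0.06, -0.14 and 0.10 on the normal diet arrays. The 3 groups did not overlap. The normal diet values lie near 0 by construction, and subunits are not replicates, so no test is given. In log2 fold changes, the core median minus the accessory median was 1.19 at 3 weeks and -0.41 at 7 weeks against normal diet. By signal, 4 of the 6 core subunits were in the brightest signal decile of genes, 1 in the next and 1 in the one below. Core subunits had 1.58 to 18.3% of the saturation value and accessory subunits 0.699 to 23.5%, so their signals covered much the same range.

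**Figure D3:**
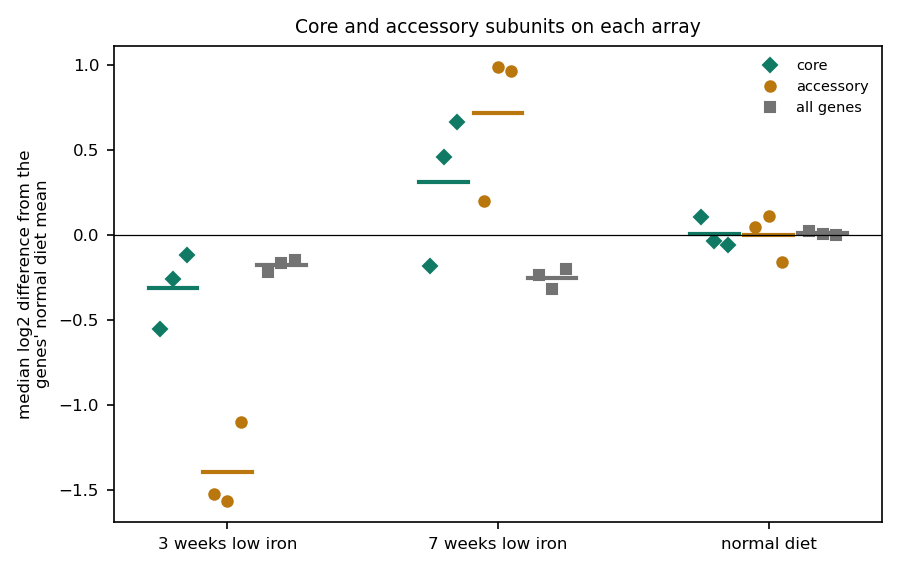
Each point is the median, on 1 array, of the log2 differences from the normal diet mean over the core subunits (diamonds), the accessory subunits (circles) or all genes tested (squares), with bars at the mean of 3 arrays. The accessory points lie at -1.56 to -1.10 on 3 week arrays and at 0.20 to 0.99 on 7 week arrays, while the core points lie between -0.55 and 0.66.

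At 3 weeks against normal diet the median change of all genes fell steadily from signal decile 5 to decile 10, the brightest. At 7 weeks against normal diet the decile medians followed no single direction. Most members were bright: 26 of the 36 were in the brightest signal decile of genes and 6 in the next. In the brightest decile, the other genes had a median of -0.55 at 3 weeks and -0.07 at 7 weeks against normal diet. The members in it had medians of -1.25 and 0.73. Between 7 and 3 weeks the other genes of the brightest decile had a median of 0.45 and its members 2.08. There 33.4% of all genes of that decile were called higher and 6.69% lower, and 23 of its 26 members were called higher. Whether signal accounts for a share of the members' change was not tested.

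**Figure D4:**
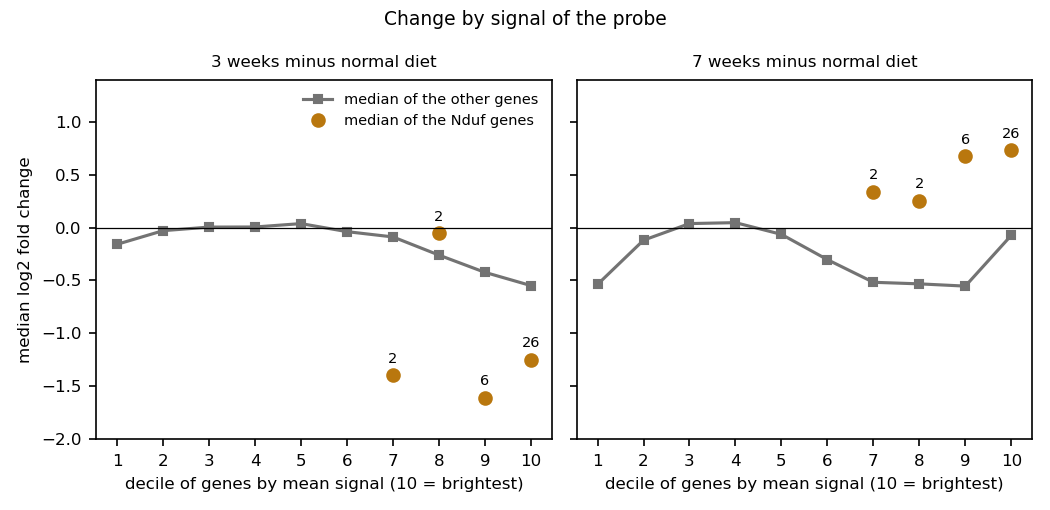
Genes are put in deciles by mean signal over the 9 arrays (x axis), and the y axis is the median log2 fold change at 3 weeks (left) or 7 weeks (right) minus normal diet. Circles are the members, with their number, and squares the other genes; in the brightest decile the 26 members lie at -1.25 beside -0.55 for other genes at 3 weeks, and at 0.73 beside -0.07 at 7 weeks.

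Genes of other cell types also moved with the groups. Their counts stand beside 7.88% of all genes lower and 3.52% higher at 3 weeks, and 18.7% lower and 10.7% higher at 7 weeks. The summed linear level of 9 monocyte and macrophage markers was 65.7 to 93.2 at 3 weeks, 21.8 to 27.3 at 7 weeks and 38.8 to 57.1 on normal diet, and 3 of the 9 rose at 3 weeks while 4 fell at 7 weeks. That of 7 B lineage markers was 9.27 to 22.5 at 3 weeks, 3.49 to 9.90 at 7 weeks and 4.33 to 7.06 on normal diet, with 2 of the 7 higher at 3 weeks, and Cd79a higher and Ms4a1 lower at 7 weeks. Cd68 of the macrophage list and Pax5 of the B lineage list were not in the test. The sums of the neutrophil lineage, T and NK, megakaryocyte and mast cell, basophil and eosinophil lists overlapped between 3 weeks and normal diet. Single markers in them still passed: of the 10 neutrophil markers Mmp9 and Ngp rose at 3 weeks, by 3.52 and 2.98, and Elane rose at 7 weeks, by 2.60, while of the 5 megakaryocyte markers Gp9 fell at 7 weeks, with -1.90. Others of the same lists went the other way without passing. Of the 10 neutrophil markers 3 had a negative change at 3 weeks and 6 at 7 weeks, and 2 of the 5 megakaryocyte markers had a positive change at 7 weeks. At 7 weeks the sum of the 6 T and NK markers was 22.2 to 38.0, against 17.8 to 20.1 on normal diet, and that of the 6 mast cell, basophil and eosinophil markers was 5.37 to 11.7, against 20.6 to 33.5 on normal diet. In both lists these sums did not overlap between the groups, and by the test 1 of the 6 T and NK markers rose and 2 of the 6 mast cell, basophil and eosinophil markers fell. The part of these cells in the complex I values was not tested.

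The nuclear subunits of the other respiratory complexes give a comparison from outside the complex, and none of these lists was tested as a set. At 3 weeks 17 of 39 subunits of complexes II to V fell and 0 rose, with a median of -0.99, and at 7 weeks against normal diet 12 rose and 1 fell, with a median of 0.47. Over all genes 7.88% fell and 3.52% rose at 3 weeks, and 10.7% rose and 18.7% fell at 7 weeks. At 3 weeks 1 of 4 fell in complex II, 5 of 9 in complex III, 6 of 11 in complex IV and 5 of 15 in complex V. The largest falls at 3 weeks were Sdhc at -1.43 (adjusted p = 0.0203) in complex II, Uqcr10 at -2.39 (adjusted p = 0.00794) in complex III, Cox6c at -2.14 (adjusted p = 0.00969) in complex IV and Atp5k at -2.82 (adjusted p = 0.0108) in complex V. Those that did not pass include Uqcrc1 at 0.18, Uqcrfs1 at -0.44 and Cyc1 at -0.44 in complex III. In complex IV they include Cox4i1 at -0.57 and Cox6a1 at -0.56. In complex V they include Atp5b at -0.26 and Atp5a1 at -0.74, but also Atp5g1 at -1.33 and Atp5g2 at -1.67. These are examples, and subunits with small and with large changes were among those that did not pass. Core and accessory subunits were not told apart in these complexes, so whether that contrast is particular to complex I was not tested.

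**Figure D5:**
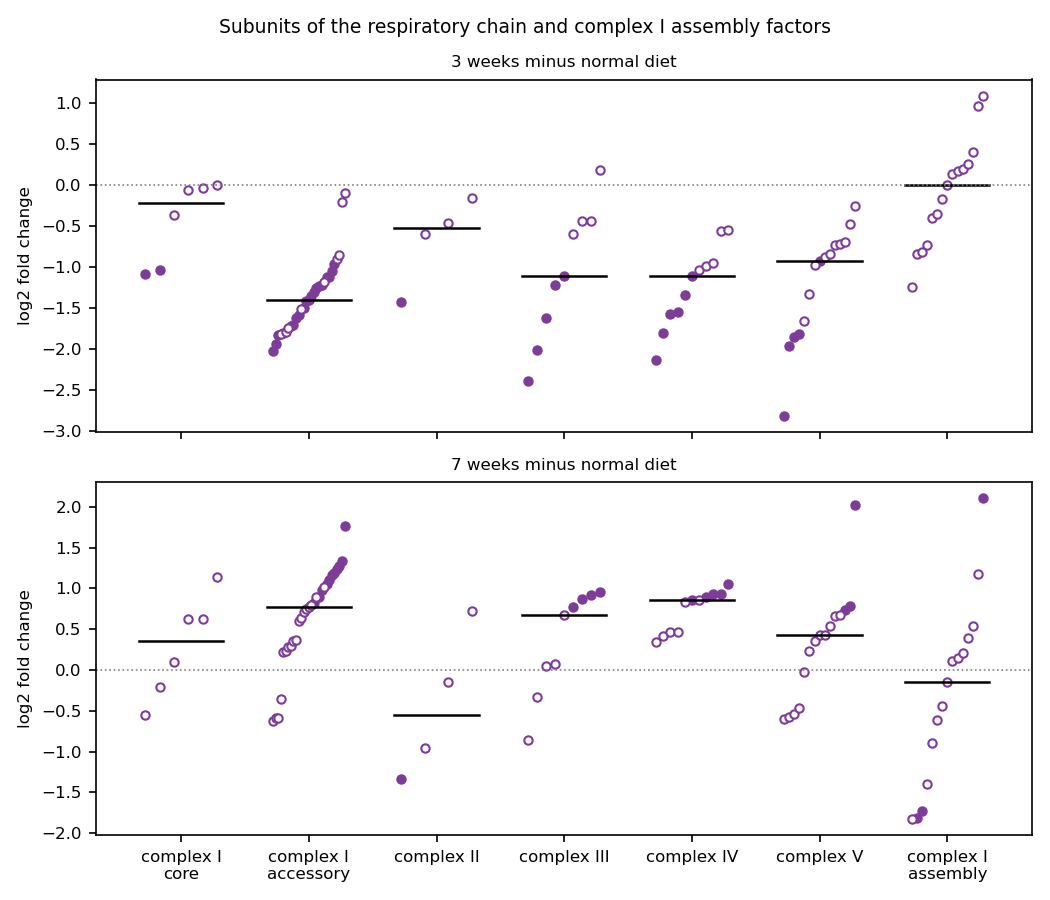
Each point is the log2 fold change of 1 gene against normal diet, at 3 weeks (top) and 7 weeks (bottom), filled where adjusted p was under 0.05, with a line at the median of each list. Complex I accessory subunits have medians of -1.41 and 0.77, complex I core subunits -0.22 and 0.36.

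No factor that assembles complex I passed the test at 3 weeks. Of 16 listed factors 15 were tested, and limma called 0 of them at 3 weeks (3 at an unadjusted p under 0.05), with a median change of -0.0049. Over all genes 7.88% fell and 3.52% rose there, so 0 calls among 15 genes is close to the share of all genes. At 7 weeks against normal diet Acad9, needed for assembly of the membrane arm, changed by -1.81 (adjusted p = 0.0109), Tmem186 by -1.72 (adjusted p = 0.0342), and Ndufaf5, which modifies a core subunit, by 2.10 (adjusted p = 0.00422). Over all genes 18.7% fell and 10.7% rose at 7 weeks. Among 7 tested regulators of nuclear mitochondrial genes, Gabpb1, a partner of GABPA, changed by -1.56 at 3 weeks (adjusted p = 0.0178), and at 7 weeks Yy1, which binds the YY1 motif, changed by -1.87 (adjusted p = 0.00509) and Gabpb1 by -0.94 (adjusted p = 0.0454). Nrf1, which binds the NRF1 motif, had -0.50 (adjusted p = 0.339) at 3 weeks and -0.12 (adjusted p = 0.808) at 7 weeks. The 3 accessory subunits whose windows held the NRF1 letters had changes of -1.26, -0.85 and -0.97 at 3 weeks (Ndufa6, Ndufa8 and Ndufa11). Among the 7 with the YY1 letters, which include the core subunit Ndufs7, the values ran from -2.03 in Ndufa3 to -0.21 in Ndufs4. Yy1 itself had -0.65 (adjusted p = 0.208) at 3 weeks. The members with the GABPA letters had -1.58 in Ndufb6, -1.74 in Ndufb7, -0.04 in the core subunit Ndufs3 and -0.0036 in the core subunit Ndufs8. Over all 29 accessory subunits the 3 week changes ran from -2.03 to -0.10, and over the 6 core subunits from -1.09 to -0.0036. Whether the letters bear on the changes was not tested.

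The count at 3 weeks rests on few arrays. Without any 1 of the normal diet or 3 week arrays, 1 to 12 of the 36 fell in place of 23, beside 0.8 to 4.21% of all genes in place of 7.88%, and only Ndufa3 of the 23 did so in all 9 of the fits that each left out an array. The median of the 36 minus that of all genes stayed between -1.20 and -1.03 in those fits, against -1.08 with all arrays. With normal diet replicate 3 alone, the 1 whose sex-linked genes matched its label, limma called 0 of the 36 at 3 weeks (16 at an unadjusted p under 0.05) and 0 at 7 weeks (7 at an unadjusted p under 0.05), with 0 and 1 calls among all genes. Set against that array, 31 of the 36 were lower on all 3 arrays of 3 weeks, against 42.9% of all genes, and 22 were higher on all 3 arrays of 7 weeks, against 24.7% of all genes. The median of the 36 minus that of all genes was then -0.98 at 3 weeks and 1.16 at 7 weeks. Under quantile normalization 10 of the 36 fell at 3 weeks and all genes split into 808 lower and 615 higher, in place of 1143 and 510. At 7 weeks against normal diet 3, 6 and 3 of the 36 rose without normal diet replicate 1, 2 and 3, in place of 11, beside 3.97, 7.75 and 5.27% of all genes in place of 10.7%, and Ndufa7, Ndufa11 and Ndufa2 passed whichever array was left out.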

How the data were processed

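Total RNA of sorted erythroblasts was amplified and labelled with Cy3, per the labels' protocols. The deposited scanner files hold spot intensity from Agilent Feature Extraction 10.7.3.1, background-subtracted and detrended within each array, per the file headers. The deposited series table holds log2 values centred on each probe's median; its normalization is not given in the sources used here. Sequences and names are RefSeq, GRCm38.p6; accessions named 26043 of 55681 probes. Of the genes that the symbol rule takes, 1 is not reported here and is left out of every count and median of members. The members and lists were chosen with earlier results of these data known.

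Control spots and scanner outliers were left out, and no spot was saturated. log2 signal minus the array's 75th percentile was fitted with limma 3.58.1 (lmFit and eBayes, R 4.3.3, two-sided) over all 9 arrays with 3 group means, with Benjamini-Hochberg adjustment over 14506 genes. The script was tested on simulated data. The number of arrays limits the precision. Named genes were the core subunits, the 8 accessory subunits with the largest called change in each comparison, members with an opposing probe, Ndufa4 and Ndufa4l2, and at most 2 called genes of each other list; others are given as examples. Same-numbered arrays correlated between -0.17 and 0.29 in their deviations and different-numbered ones between -0.27 and 0.24, so numbers were not taken as pairs. Alternatives were quantile and median scaling, normexp (on the median signal, the mean being not used here), the deposited table, other probe filters, the mean over probes, 2-group fits, a replicate block, leaving out arrays and dropping probes over 20% of saturation. Promoter motifs were searched as 7-letter cores after longer forms had been looked at, and the share of members with a match depends on the form. The signal deciles and the comparison with normal diet replicate 3 array by array were added after seeing the data.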

Additional observations from a re-analysis of the deposited data

Results flagged for a closer look

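For 18 of the named genes the change against normal diet differed between 7 and 3 weeks of low iron diet, by the test of that difference itself (limma, adjusted p under 0.05), which 37.2% of all genes tested passed. Many of the 18 were named for a large called change in this contrast or in those it is made of, so their values are a description and their number supports nothing. The normal diet arrays cancel in it, so it equals the 7 week minus 3 week contrast. Age may differ between the mice of that contrast as well, and its part was not tested. The difference was positive for all 18 by the brightest probe, though the second probe of Ndufv3 gave -1.99. Among the core subunits it was 1.14 for Ndufv2 and 1.71 for Ndufs7. Among the accessory subunits of the matrix arm it was 2.66 for Ndufv3, 2.22 for Ndufs6, 3.17 for Ndufa7, 2.75 for Ndufa5, 2.50 for Ndufa6, 2.32 for Ndufa2 and 2.41 for Ndufa12. Among those of the membrane arm it was 3.13 for Ndufa3, 2.61 for Ndufb2, 2.09 for Ndufa1, 2.08 for Ndufb3, 2.72 for Ndufs5, 2.33 for Ndufb6, 2.24 for Ndufa11 and 2.18 for Ndufa13. Ndufa4, now placed in cytochrome c oxidase, had 1.93.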

How the results depend on the processing

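The members' median minus the all-gene median kept its sign in every alternative tried, and so did the core minus accessory difference. Values that moved follow. Quantile normalization left 10 members lower at 3 weeks in place of 23, set the all-gene median at 3 weeks to -0.02 in place of -0.17, and gave -0.26 for core minus accessory at 7 weeks against normal diet and 1.54 for members minus all genes between 7 and 3 weeks. With it Ndufv1 was 0.37, Ndufs1 0.41, Ndufs3 0.68 and Ndufs8 0.15 at 3 weeks, Ndufa1 was -0.37 at 7 weeks, and between 7 and 3 weeks Ndufv1 was -0.84 (adjusted p = 0.0473) and Ndufs3 -0.18, each of the opposite sign. The deposited table gave 0.0016 for Ndufs3 and 0.036 for Ndufs8 at 3 weeks. The mean over probes gave -0.25 for Ndufv3 at 7 weeks, -0.58 at 3 weeks and 0.33 between 7 and 3 weeks. Normexp gave 0.64 for members minus all genes at 7 weeks. With no filter on dim probes it was 0.57 at 7 weeks and 1.85 between 7 and 3 weeks, and 6939 genes passed at 7 weeks, with more higher than lower. Fitting only the arrays of both groups gave 4416 genes at 3 weeks, and 6 members and 2819 genes at 7 weeks.

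With normal diet replicate 3 as the only normal diet array, limma called 0 members and 0 genes at 3 weeks (1588 genes at an unadjusted p under 0.05) and 0 members and 1 gene at 7 weeks (3047 genes), core minus accessory was 1.03 and -0.61, and Ndufs3 and Ndufs8 were 0.30 and 0.42 at 3 weeks. That fit has 1 normal diet array, assumed to vary like the other groups.

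Leaving out each array in turn, members called ranged from 1 to 29 at 3 weeks, from 3 to 21 at 7 weeks and from 25 to 33 between 7 and 3 weeks, and all genes called from 198 to 3503, from 1739 to 5210 and from 3544 to 6489. Core minus accessory ranged from 1.01 to 1.25 at 3 weeks and from -1.45 to -1.14 between 7 and 3 weeks. Without 1 array some changes of single genes crossed 0: at 3 weeks Ndufs1 ranged from -0.19 to 0.013, Ndufs3 from -0.21 to 0.10 and Ndufs8 from -0.22 to 0.25, at 7 weeks Ndufv1 from -0.45 to 0.14 and Ndufv2 from -0.071 to 0.27, and between 7 and 3 weeks Ndufv1 from -0.074 to 0.52. With the replicate number as a block, 17 members passed at 3 weeks, 10 at 7 weeks and 28 between 7 and 3 weeks, among 1401, 4063 and 5245 of all genes, and Ndufv2 and Ndufs7 no longer passed at 3 weeks (adjusted p = 0.0536 and 0.0528). The cause of each move was not tested. Fits that leave arrays out also have fewer arrays.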
